A study of Mus musculus with 18 samples.

Results

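The distribution of trimethylated lysine 27 of histone H3 (H3K27me3) was compared with that of the dimethylated form (H3K27me2) in untreated E14 mouse embryonic stem cells. E14 is a pluripotent line. It was grown on gelatin in 2i/LIF medium, in which LIF, a cytokine, and small-molecule blockers of MEK and GSK3 keep the cells from differentiating, with light or isotope-labelled arginine and lysine. The comparison used 4 of the 18 libraries of the series, 2 for each mark, from cells without drug, solvent or spike-in chromatin. Each mark was precipitated with its own monoclonal antibody. Libraries of H3K27me1, H3K36me2 and H3K36me3 from untreated cells, 2 each, were read beside them, as were 2 H3K27me3 libraries from cells kept 7 days in the solvent DMSO, with a Drosophila spike-in. The labels do not say whether the replicates were separate cultures, so p-values measure the spread between these libraries, which may be technical.

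The regions compared were 16457 promoters and 18141 bodies of the 20665 protein-coding genes on the 19 autosomes, and 103122 intergenic bins of 10 kb that touch no gene. A promoter was the 2 kb centred on the outermost annotated start of a gene. A gene body ran from 1 kb past the start to the 3′ end. In each library the signal of a region was divided by that library's autosomal mean. A relative level of 1 is therefore the average of that mark, and levels of the 2 marks can be compared in distribution but not in amount. Ratios are log2(H3K27me3 + 0.1) minus log2(H3K27me2 + 0.1), so a positive ratio means that a region held more of the H3K27me3 signal than of the H3K27me2 signal, and ratios of low regions are understated.

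Polycomb repressive complex 2 (PRC2), with EZH2 or EZH1 as its catalytic subunit, places all 3 methylation states on H3K27, adding methyl groups in steps. H3K27me3 marks silent developmental genes in stem cells, above all at CpG islands, where PRC2 is recruited. H3K27me2 is a broad mark outside those sites. H3K36me3 is laid down over transcribed gene bodies, and H3K36 methylation on the same histone tail is known to hinder PRC2.

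The sequences below give the DNA of the most extreme cases. They are the gene starts with the 2 largest promoter ratios, those with the 2 smallest among promoters that held at least 2 times the mean of H3K27me2, the Hox gene with the largest ratio, and Pou5f1, where both marks were near absent. All are from RefSeq on GRCm38.p6, 5′ to 3′ along the gene's strand, from 250 bases before to 50 bases after the annotated start, with each CG dinucleotide in capitals. CG reads the same on both strands. They are Nkx1-1 at chr5:33434041-33434340 (minus strand), Grb10 at chr11:12037371-12037670 (minus strand), Tmem262 at chr19:6079788-6080087 (plus strand), Gm18905 at chr7:44273109-44273408 (minus strand), Hoxd12 at chr2:74674763-74675062 (plus strand) and Pou5f1 at chr17:35505782-35506081 (plus strand). In these 300 bases the median promoter held 14 CG, and 95.04% of the 16457 promoters held at least 1.
Nkx1-1: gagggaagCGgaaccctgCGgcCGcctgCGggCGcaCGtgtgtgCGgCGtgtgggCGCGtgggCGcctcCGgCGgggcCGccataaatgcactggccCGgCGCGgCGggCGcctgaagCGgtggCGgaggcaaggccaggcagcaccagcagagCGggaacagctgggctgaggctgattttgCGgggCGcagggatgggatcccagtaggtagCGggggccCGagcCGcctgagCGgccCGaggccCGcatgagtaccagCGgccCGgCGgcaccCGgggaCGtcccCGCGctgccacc
Grb10: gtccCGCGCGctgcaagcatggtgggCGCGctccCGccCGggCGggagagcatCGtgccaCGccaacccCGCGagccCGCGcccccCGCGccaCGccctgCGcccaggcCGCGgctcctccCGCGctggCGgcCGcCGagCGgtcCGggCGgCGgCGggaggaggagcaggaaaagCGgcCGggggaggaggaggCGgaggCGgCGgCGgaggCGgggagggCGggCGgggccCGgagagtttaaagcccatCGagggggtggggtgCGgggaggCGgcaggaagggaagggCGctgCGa
Tmem262: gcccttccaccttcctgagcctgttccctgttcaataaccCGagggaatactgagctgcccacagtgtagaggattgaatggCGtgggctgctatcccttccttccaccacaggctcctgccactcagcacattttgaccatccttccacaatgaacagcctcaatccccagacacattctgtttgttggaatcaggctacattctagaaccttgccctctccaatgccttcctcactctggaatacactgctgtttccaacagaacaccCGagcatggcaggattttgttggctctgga
Gm18905: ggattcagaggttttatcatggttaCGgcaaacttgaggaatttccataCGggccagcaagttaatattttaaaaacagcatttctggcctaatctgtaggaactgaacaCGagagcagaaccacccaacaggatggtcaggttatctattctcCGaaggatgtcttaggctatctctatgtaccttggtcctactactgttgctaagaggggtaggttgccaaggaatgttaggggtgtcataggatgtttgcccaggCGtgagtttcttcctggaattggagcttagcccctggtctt
Hoxd12: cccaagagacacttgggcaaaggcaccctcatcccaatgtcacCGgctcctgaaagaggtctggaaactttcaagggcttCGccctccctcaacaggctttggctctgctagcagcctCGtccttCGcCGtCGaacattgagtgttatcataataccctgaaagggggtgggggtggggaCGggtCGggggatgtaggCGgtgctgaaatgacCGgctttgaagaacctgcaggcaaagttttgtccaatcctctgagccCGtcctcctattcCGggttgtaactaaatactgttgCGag
Pou5f1: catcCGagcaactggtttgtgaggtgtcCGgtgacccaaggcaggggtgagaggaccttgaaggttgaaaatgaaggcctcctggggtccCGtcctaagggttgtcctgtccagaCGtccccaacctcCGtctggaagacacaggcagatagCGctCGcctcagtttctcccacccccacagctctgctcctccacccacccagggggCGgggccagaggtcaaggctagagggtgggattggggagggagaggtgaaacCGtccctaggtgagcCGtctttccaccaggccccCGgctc
The Nkx1-1 and Grb10 starts hold 37 and 45 CG, the Tmem262 and Gm18905 starts 3 and 5, Hoxd12 13 and Pou5f1 11. These extremes do not stand for promoters at large: those called below as having relatively more H3K27me3 had a median of 12 CG and those with relatively less 17.

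The H3K27me3 libraries averaged 13.5 and 11.2 reads per 1 kb window on autosomes, and the H3K27me2 libraries 19.5 and 24.3. Windows without a read made up 15.3% and 15.4% of the H3K27me3 tracks and 6.38% and 5.89% of the H3K27me2 tracks. Bodies of 10 pluripotency genes carried H3K36me3 at 2.51 to 7.75 times the autosomal mean, with a median of 7.10, against 2.05 for all gene bodies. Levels above 2 were also seen at 2 of 7 fibroblast, 2 of 5 neural, 3 of 6 mesendoderm and 3 of 5 trophoblast marker genes, where 50.9% of all gene bodies exceeded 2.

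Averaged over promoters, H3K27me3 stood above its autosomal mean and H3K27me2 stood near its own. The mean does not stand for the typical promoter. Median promoter levels were 0.464 and 0.489 for H3K27me3 and 0.924 and 0.873 for H3K27me2 in the 2 libraries of each mark. The mean H3K27me3 level over promoters was 1.90 and 1.91 in the 2 libraries, and that of H3K27me2 was 1.06 and 0.947. Both H3K27me3 libraries lay above both H3K27me2 libraries. The means were 1.91 ± 0.00588 and 1.00 ± 0.0766 (SD, n = 2), a log2 difference of 0.93. Over gene bodies pooled by length, so that long genes count for more, H3K27me3 stood at 1.15 and 1.12 and H3K27me2 at 1.19 and 1.16, a log2 difference of -0.05. With each of the 18141 bodies counted once, the order was the reverse, at 1.49 and 1.46 for H3K27me3 and 1.37 and 1.25 for H3K27me2. In intergenic bins H3K27me3 stood at 0.749 and 0.778 and H3K27me2 at 0.786 and 0.823, a log2 difference of -0.08. For each of the 3 classes the exact two-sided permutation test gave p = 0.3333, which is the lowest value this design can reach.

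The H3K27me3 signal was also packed into less of the genome. The 1% of 10 kb bins with most signal held 7.74% and 7.73% of H3K27me3 reads but 3.25% and 2.71% of H3K27me2 reads. The top 10% of bins held 41.5% and 39.9% against 23.2% and 20.3%. No library of one mark reached the range of the other (exact two-sided permutation p = 0.3333 for both shares, again the lowest possible). Promoter levels spread accordingly. From the 10th to the 90th percentile of promoters H3K27me3 ran from 0.0371 to 6.13 in replicate 1 and H3K27me2 from 0.205 to 2.09. At the 99th percentile the levels were 12.8 and 3.14.

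Ratios were tested region by region with limma on the log2 levels (Benjamini-Hochberg adjusted p under 0.05), for regions with a mean level of at least 0.1 over the 4 libraries. Of 15339 promoters tested, 4445 (29%) had relatively more H3K27me3 and 7793 (50.8%) relatively less. With the H3K27me3 libraries of DMSO-treated cells 4754 promoters were called higher and 5207 lower, so lower calls were fewer over promoters at large. Without H3K27me2 replicate 1, 4792 promoters were called lower. For gene bodies the counts were 4545 (26%) and 10516 (60.1%) of 17508. For intergenic bins they were 16058 (16.9%) and 51602 (54.3%) of 94981. The balance of directions depends on the zero point of the ratio: with each library divided by its median 10 kb bin in place of its mean, the median ratio shifted up by 0.61 at promoters and 0.64 over bodies and bins, and the calls became 5579 (36.4%) and 4674 (30.5%) for promoters, 6397 (36.5%) and 8201 (46.8%) for bodies, and 33771 (35.6%) and 24075 (25.3%) for bins. Promoters and bins thus had more lower than higher calls with the mean and the reverse with the median, while gene bodies had more lower calls with both. A region with little H3K27me3 passes the level filter mainly through its H3K27me2, the mark that then makes a lower call. For gene lists with many members too low to test, the levels of all measured members are therefore given first, and the lower calls among those that passed are a description that is not read against the share over all promoters.

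**Figure D1:**
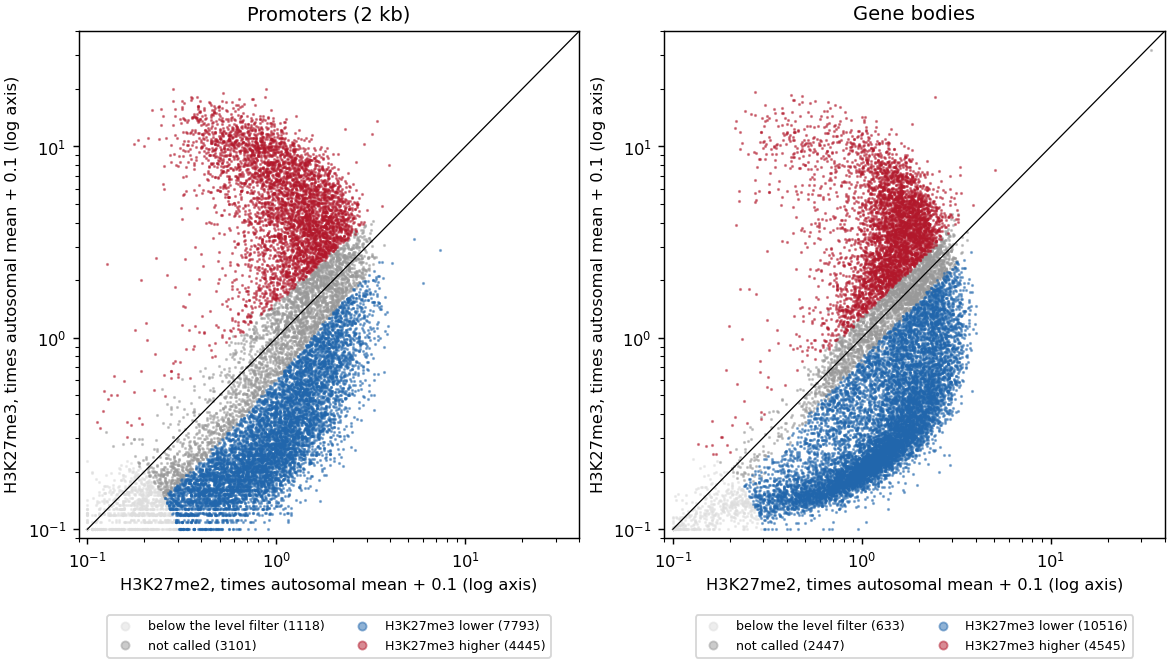
H3K27me3 against H3K27me2 at 16457 promoters (left) and 18141 gene bodies (right), each point a region, as mean relative level of 2 libraries plus 0.1 on log axes; the line marks equal relative levels and colours mark the call. The points bend: promoters at 8 or more times the mean of H3K27me3 have a median H3K27me2 level of 0.639, below the 1.52 of those at 2 to 4.

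H3K27me2 was highest at promoters with an intermediate level of H3K27me3, as the plot of both levels shows. Promoters with an H3K27me3 level under 0.1 had little of either mark, with a median H3K27me2 level of 0.295 and 0.277 in the 2 libraries. H3K27me2 was higher at promoters with more H3K27me3, up to a median of 1.58 and 1.45 where H3K27me3 stood at 2 to 4. It was lower again above that, at 1.19 and 1.13 for H3K27me3 of 4 to 8 and 0.648 and 0.601 for 8 and more, which held 1040 promoters. Gene bodies had H3K27me2 medians of 0.420 and 0.452 where H3K27me3 was under 0.1, 1.63 and 1.59 at H3K27me3 of 2 to 4, and 0.733 and 0.678 in the 405 bodies at 8 and more. In both classes and both H3K27me2 libraries the top group of H3K27me3 thus had less H3K27me2 than the group at 2 to 4. Both marks reached 2 times their mean together at 570 promoters (3.46%). H3K27me3 alone did so at 4061 (24.7%) and H3K27me2 alone at 804 (4.89%). Promoters with H3K27me2 alone had a median H3K27me1 level of 1.67, against 0.709 for those with H3K27me3 alone.

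The largest promoter ratio was that of Nkx1-1, a homeobox gene on chromosome 5. Its promoter (33433090 to 33435089) held H3K27me3 at 20.4 and 19.1 and H3K27me2 at 0.257 and 0.113 times the mean, from 550 and 430 reads against 10 and 6. The H3K27me3 libraries lay far above the H3K27me2 libraries, with a log2 ratio of 6.17 ± 0.25 (SE; limma, adjusted p = 1.51e-12). Grb10, an imprinted gene for an adaptor protein of insulin receptor signalling, followed on chromosome 11 (12036420 to 12038419). Its H3K27me3 levels were 15.7 and 15.1 and its H3K27me2 levels 0.116 and 0.123, a log2 ratio of 6.14 ± 0.23. The next 8 lay between 5.77 and 6.02. They were Trp73, a p53 family transcription factor, Skor1, a transcriptional corepressor, Pfdn4, a prefoldin subunit whose promoter window overlaps Cyp24a1, the enzyme that inactivates vitamin D, and Evx2, the homeobox gene beside the Hoxd cluster. The others were Pcdh7, a protocadherin, Ihh, a hedgehog ligand, Egr4, a zinc finger factor, and Crhr1, the receptor of corticotropin-releasing hormone. In these 10 promoters H3K27me3 was between 9.96 and 20.4 in every library and H3K27me2 at most 0.411.

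At the other end, the promoters described are the 10 with the smallest ratios among those that held at least 2 times the mean of H3K27me2, so their H3K27me2 level is set by the choice. Promoters with less of it reached ratios as low, the lowest being -3.59 at Phkg1, named after its value was seen. Tmem262, on chromosome 19 (6079038 to 6081037), in a window that overlaps Zfpl1, had H3K27me2 at 2.41 and 1.91 and H3K27me3 at 0.204 and 0.0222. The libraries of the marks did not overlap, and the log2 ratio was -3.54 ± 0.40 (limma, adjusted p = 4.05e-07). Gm18905, on chromosome 7 (44272158 to 44274157), had H3K27me2 at 3.14 and 1.88 and H3K27me3 at 0.186 and 0.133, a log2 ratio of -3.29 ± 0.34. The other 8 ran from -3.28 to -3.01. Among them were Igll1, part of the pre-B cell receptor, Smyd1, a methyltransferase of muscle, Myo15, a myosin of inner ear hair cells, and Tas1r1, a taste receptor. The windows of Myo15 and Tas1r1 overlap the neighbouring genes Drg2 and Nol9, and that of E030018B13Rik overlaps Klf13. Gigyf1, a translational regulator, Tmem150a and Smarcd2, a subunit of the BAF remodelling complex, completed the list. Gigyf1 had the highest H3K27me2 of the 10, at 3.31 and 3.09, with H3K27me3 at 0.483 and 0.156. With the H3K27me3 libraries of DMSO-treated cells, which did not choose these promoters, all 10 remained lower but with smaller ratios. They ran from -2.68 (E030018B13Rik) to -1.19 (Gm18905), and Tmem262 was at -1.99. The H3K27me2 libraries in these ratios were the same that chose the promoters. The 10 promoters with the largest ratios had larger ones with the DMSO libraries, from 6.09 (Evx2) to 6.94 (Nkx1-1). This upward shift was not particular to the named promoters. Over all promoters the log2 difference of the mean levels was 1.33 with the DMSO libraries, against 0.93 with the untreated ones.

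Among developmental regulators the ratio was high nearly throughout. Of the Hox genes, the homeobox factors that set position along the body axis, 22 of 39 had a promoter that could be measured. All 22 passed the level filter and all 22 had relatively more H3K27me3, where 29% of all promoters did. Their median log2 ratio was 4.12, against -0.77 over all promoters tested. Hoxd12 had H3K27me3 at 15.2 and 15.7 and H3K27me2 at 0.411 and 0.329, a log2 ratio of 5.06 ± 0.21 (limma, adjusted p = 1.51e-12). Hoxa11 followed at 4.98 ± 0.30, with H3K27me3 at 12.4 and 11.9 and H3K27me2 at 0.488 and 0.154. Hoxc4 was the lowest, with H3K27me3 at 2.17 and 3.65 and H3K27me2 at 1.45 and 1.28. Its log2 ratio of 0.99 ± 0.25 (limma, adjusted p = 0.00181) was not called without H3K27me3 replicate 2 (0.63, adjusted p = 0.0748). Over the 33 Hox bodies measured, 31 had relatively more H3K27me3 (93.9%, against 26% of all bodies). The Hoxc13 body, with H3K27me3 at 0.844 and 0.776 and H3K27me2 at 1.40 and 1.18, had relatively less (-0.61 ± 0.15), a sign that turned with median scaling (0.09). The Hoxc4 body, at 1.09 and 2.11 against 1.32 and 1.22, was not called (0.24 ± 0.26) but was with median scaling (0.97, adjusted p = 0.00396).

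Of 90 other developmental transcription factor promoters tested, 79 had relatively more H3K27me3 and 5 less (87.8% and 5.56%, against 29% and 50.8% of all promoters), with a median of 3.98. The lower calls were 1 with median scaling and 1 with the DMSO libraries. Emx2, a forebrain homeobox factor, had H3K27me3 at 9.57 and 10.3 and H3K27me2 at 0.167 and 0.0308, a log2 ratio of 5.75 ± 0.31, next in this list after Nkx1-1. Tbx6, a factor of paraxial mesoderm, went the other way with H3K27me3 at 0.687 and 0.934 and H3K27me2 at 3.41 and 2.42, a log2 ratio of -1.72 ± 0.26 (limma, adjusted p = 1.67e-05). Proneural and myogenic factors were called higher at 22 of 25 promoters and lower at 1 (88% and 4%, against 29% and 50.8% of all promoters), with a median of 4.01. Olig2, of the oligodendrocyte and motor neuron lineage, had H3K27me3 at 14.7 and 13.0 and H3K27me2 at 0.192 and 0.257 (5.43 ± 0.23). Twist1, a mesoderm factor, followed at 5.40 ± 0.24. Neurod4 was the lower call, at -1.11 ± 0.34. It was not called with median scaling (-0.48, adjusted p = 0.279) or without H3K27me2 replicate 2 (-0.90, adjusted p = 0.143).

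Developmental ligands were called higher at 43 of 49 promoters tested and lower at 3 (87.8% and 6.12%, against 29% and 50.8% of all promoters), with a median of 3.29. Ihh led with H3K27me3 at 17.6 and 16.8 and H3K27me2 at 0.282 and 0.154 (5.79 ± 0.24). Wnt1 followed with 15.8 and 14.1 against 0.295 and 0.288 (5.26 ± 0.21). Gdf15, a stress-induced ligand of the TGF-beta family, had H3K27me3 at 0.576 and 0.156 and H3K27me2 at 2.13 and 1.39, a log2 ratio of -2.13 ± 0.40. The ligand bodies had a median ratio of 1.75, with 52 of 67 higher and 7 lower (77.6% and 10.4%, against 26% and 60.1% of all bodies). In the list of formative and primed genes, which mark the step that follows the naive state, 8 of 10 promoters were higher and 1 lower (80% and 10%, against 29% and 50.8% of all promoters; median 3.11). Foxa2, a pioneer factor of endoderm, had a ratio of 4.09 ± 0.24 and T, the mesoderm factor brachyury, one of 3.98 ± 0.24. Zic5 was the lower call, with H3K27me3 at 0.130 and 0.4003 and H3K27me2 at 1.27 and 1.10 (-1.92 ± 0.38).

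**Figure D2:**
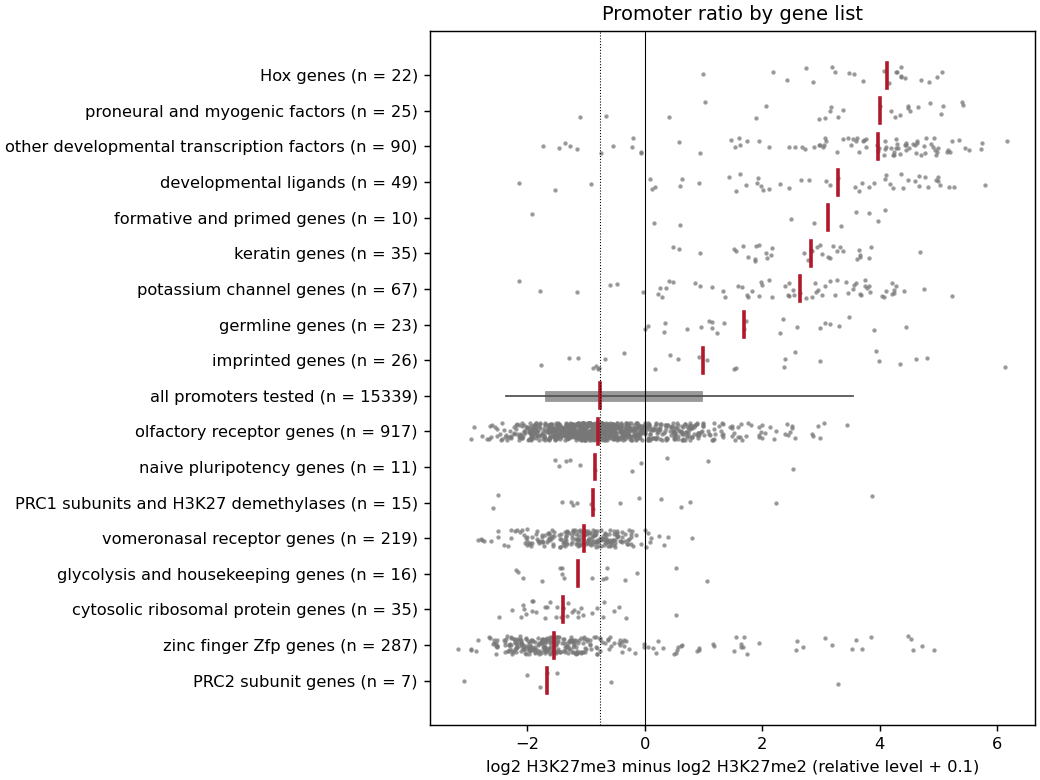
Promoter log2 ratio of H3K27me3 to H3K27me2 for each gene list (grey points, 1 per tested promoter, and red bars, medians). For all 15339 promoters the box is the interquartile range and the line the 5th to 95th percentiles (-2.35 to 3.55), with a dotted line at their median of -0.77. Hox and other developmental factors centre near 4. The PRC2 subunit, Zfp and ribosomal protein promoters drawn lie on the left, but promoters low in H3K27me3 pass the level filter mainly through their H3K27me2. Promoters under the filter are not drawn, 4 of 11, 37 of 324 and 17 of 52 in these lists.

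Keratin genes, which encode the intermediate filaments of epithelia, had relatively more H3K27me3 at all 35 promoters tested, where 29% of all promoters did, with a median of 2.84. With the DMSO libraries 33 were called, without Krt42 and Krt10 (0.57, adjusted p = 0.0782). Krt2 had H3K27me3 at 10.2 and 9.36 and H3K27me2 at 0.180 and 0.421 (4.69 ± 0.27). Krt42 was the lowest, with H3K27me3 at 3.38 and 3.05 and H3K27me2 at 2.08 and 2.48 (0.48 ± 0.20; limma, adjusted p = 0.0383). The call was lost with the replicate block (adjusted p = 0.0554), without H3K27me3 replicate 1 (0.198), H3K27me3 replicate 2 (0.0664) or H3K27me2 replicate 1 (0.138), with the 5 kb promoter (0.0965), with no level filter (0.0517) and with no trend in limma (0.113), and the ratio was -0.04 with the H3K27me3 libraries of DMSO-treated cells. Potassium channel genes were higher at 56 of 67 promoters and lower at 3 (83.6% and 4.48%, against 29% and 50.8% of all promoters; median 2.65). Kcnk15 led them at 5.24 ± 0.25, from 11.96 and 11.6 against 0.154 and 0.288. Kcnk5 was lowest, at -2.15 ± 0.34, from 0.390 and 0.200 against 1.93 and 1.32. For the clustered protocadherins, adhesion molecules of neurons, 43 of 51 gene bodies tested were higher and 5 lower (84.3% and 9.80%, against 26% and 60.1% of all bodies), with a median of 1.14 against -0.94 over all bodies, and no promoter was measured.

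Germline genes, which act in meiosis and in piRNA silencing, were called higher at 19 of 23 promoters and lower at 0 (82.6% and 0%, against 29% and 50.8% of all promoters; median 1.68, against -0.77), or 23 and 0 with median scaling. Over their bodies 8 of 23 were higher and 10 lower (34.8% and 43.5%, against 26% and 60.1% of all bodies; median -0.08), or 13 and 5 with median scaling and 4 and 9 with the DMSO libraries. The difference between promoters and bodies was not tested. Meioc, a meiotic factor, had promoter H3K27me3 at 12.8 and 12.4 and H3K27me2 at 0.526 and 0.442 (4.45 ± 0.20). Tdrd1, of the piRNA pathway, had 10.1 and 10.0 against 0.629 and 0.534 (3.90 ± 0.21). The Stag3 promoter had both marks above their mean, at 1.63 and 1.47 against 1.98 and 1.21. Its ratio of 0.00 ± 0.27 was called by limma with median scaling (0.73, adjusted p = 0.0399) and with the DMSO libraries (0.65, adjusted p = 0.0406). Among imprinted genes 15 of 26 promoters were higher and 6 lower (57.7% and 23.1%, against 29% and 50.8% of all promoters), the latter 1 with median scaling and 0 with the DMSO libraries. Dlk1, a Notch-related ligand, had 9.62 and 9.69 against 0.218 and 0.277 (4.82 ± 0.24). Commd1 had 0.0743 and 0 against 0.385 and 0.318 (-1.77 ± 0.38), but was not called with the DMSO libraries (-0.43, adjusted p = 0.329).

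Promoters of genes of the naive pluripotent state were mostly low in both marks, with a median of 0.0927 for H3K27me3 and 0.329 for H3K27me2. Esrrb and Utf1, given below, held more of both. Of 13 promoters measured, 2 fell under the level filter, and of the 11 tested 2 were higher, 5 lower and 4 not called (18.2% and 45.5%, against 29% and 50.8% of all promoters). With median scaling the counts were 3 and 2, and with the H3K27me3 libraries of DMSO-treated cells 3 and 0. The Pou5f1 promoter, of the core pluripotency factor OCT4, was at 0.0371 and 0.0667 for H3K27me3 and 0.0257 and 0.0411 for H3K27me2, which overlap, and was too low to test. Sox2 stood at 0.111 and 0.0222 against 0.218 and 0.370, and was called lower (-1.27 ± 0.39; limma, adjusted p = 0.00699). That call was not made with median scaling (-0.97, adjusted p = 0.0986) or with the DMSO libraries (-0.82, adjusted p = 0.0953). Nanog had 0.149 and 0.467 against 0.154 and 0.503 and was not called (-0.06 ± 0.46, or 0.53 with median scaling, also not called). Fgf4 was lowest, at 0.0743 and 0.111 against 0.462 and 0.442 (-1.52 ± 0.36). With the DMSO libraries its ratio was -0.38 and was not called (adjusted p = 0.409).

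Esrrb and Utf1 were the higher calls of the naive list. At the outermost start of Esrrb, an orphan nuclear receptor, H3K27me3 stood at 6.17 and 6.27 and H3K27me2 at 0.860 and 1.15 (2.53 ± 0.21; limma, adjusted p = 6.68e-09). Its body was also called higher, at 2.24 and 2.24 against 1.196 and 1.06 (0.93 ± 0.14), beside an H3K36me3 level of 4.48. Utf1 had 3.07 and 2.65 against 1.35 and 1.25 (1.07 ± 0.23). Over the bodies of this list the median level of the 20 measured was 0.0891 for H3K27me3 and 0.417 for H3K27me2, and 4 were too low to test. Of the 16 tested 13 had relatively less H3K27me3 and 2 more (81.25% and 12.5%, against 60.1% and 26% of all bodies). With median scaling 9 had less and 2 more, where 46.8% and 36.5% of all bodies did. Stat3, the signal transducer of LIF, had 0.237 and 0.133 against 1.91 and 1.62 (-2.73 ± 0.20). Sall4 and Dppa4 followed, each at -2.28. These bodies carried H3K36me3 at 6.51, 7.45 and 4.09.

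The genes of the Polycomb machinery itself were counted in 2 lists. The 11 PRC2 subunit promoters measured had a median level of 0.0687 for H3K27me3 and 0.288 for H3K27me2, where all promoters had medians of 0.464 and 0.489 and of 0.924 and 0.873 in the 2 libraries of each mark. Of the 11, 4 were too low to test, among them Eed and Suz12, the core partners of EZH2. Of the 7 tested, 5 were lower and 1 higher (14.3% higher, against 29% of all promoters). The counts were the same with median scaling but 3 and 1 with the DMSO libraries. Ezh1 had promoter H3K27me3 at 0.149 and 0.0222 and H3K27me2 at 1.80 and 1.03 (-3.07 ± 0.41; limma, adjusted p = 3.26e-06). Ezh2 was at 0.0929 and 0.0445 against 0.103 and 0.205 and was not called (-0.58 ± 0.37). Phf19, which targets PRC2 to chromatin, was the higher call: its promoter had 10.5 and 10.3 against 1.16 and 0.811 (3.30 ± 0.20). Jarid2, an accessory subunit, had 0.0557 and 0.0222 against 0.257 and 0.318 (-1.49 ± 0.36). With the DMSO libraries the ratios of Ezh1 and Jarid2 were -1.36 and -0.34. Of the PRC1 and H3K27 demethylase genes 4 of 15 were higher and 8 lower (26.7% and 53.3%), near the 29% and 50.8% of all promoters. The counts were 5 and 2 with median scaling and 6 and 5 with the DMSO libraries, so that the balance turned. Over all promoters they were 5579 and 4674 with median scaling and 4754 and 5207 with the DMSO libraries. Pcgf5 and Bmi1, alternative Polycomb ring finger subunits of PRC1, had H3K27me3 at 9.55 and 9.98 and at 3.51 and 3.91, with ratios of 3.87 ± 0.21 and 2.24 ± 0.26. L3mbtl2 was lowest at -2.59 ± 0.37.

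Cytosolic ribosomal protein promoters were low in both marks, with a median of 0.0613 for H3K27me3 and 0.270 for H3K27me2 over the 52 measured, and 17 of them could not be tested. Of the other 35, 0 were higher, where 29% of all promoters were, and 28 were lower. With median scaling 1 was higher and 18 lower, and with the DMSO libraries 1 and 10. Rpl22 had 0.372 and 0.133 against 1.90 and 1.63 (-2.49 ± 0.36). Rpl26, at 0.910 and 0.823 against 0.757 and 0.421, was not called (0.53 ± 0.34). It was called by limma with median scaling (1.24, adjusted p = 0.00703), the DMSO libraries (0.98, adjusted p = 0.0175) and the 5 kb promoter (1.68, adjusted p = 3.44e-07). The 23 promoters of glycolysis and housekeeping genes measured had a median of 0.119 for H3K27me3 and 0.318 for H3K27me2, and 7 were too low to test. Of the others 2 were higher (12.5%, against 29% of all promoters) and 9 lower. The lower calls were 6 with median scaling and 3 with the DMSO libraries. Tbp, the TATA-binding protein, was lowest at -2.19 ± 0.39. Hk1, a hexokinase, had 3.77 and 2.93 against 1.49 and 1.59 at its outermost start (1.06 ± 0.22). The other higher call was B2m, a subunit of MHC class I, with 2.28 and 1.93 against 1.40 and 1.43 (0.54 ± 0.24; limma, adjusted p = 0.0432). It was lost without any 1 of the 4 libraries (adjusted p from 0.0630 to 0.231), with the 5 kb promoter (0.0916) and with no trend in limma (0.0778).

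Zinc finger genes with Zfp symbols, many of which encode repressors of retroelements, had a median promoter level of 0.113 for H3K27me3 and 0.644 for H3K27me2 over 324 measured, of which 37 were too low to test. Of the other 287, 225 were lower and 31 higher (10.8% higher, against 29% of all promoters). With median scaling 162 were lower and 36 higher, and with the DMSO libraries 148 and 33. Zfp799 was lowest, at 0.0186 and 0.0222 against 1.04 and 0.945 (-3.18 ± 0.36). Zfp804a was highest, at 9.23 and 9.50 against 0.334 and 0.123 (4.93 ± 0.29). Olfactory receptor promoters, of genes used by sensory neurons of the nose, had few higher calls: 101 of 917 were higher (11.01%, against 29% of all promoters) and 473 lower (51.6%, against 50.8%). Their median of -0.80 was near the -0.77 of all promoters. With median scaling 180 were higher and 174 lower, where 36.4% and 30.5% of all promoters were. Olfr222 stood out at 8.56 and 9.27 against 0.732 and 0.729 (3.44 ± 0.20). Vomeronasal receptor promoters had a median of 0.114 for H3K27me3 and 0.361 for H3K27me2 over the 320 measured, and 101 were too low to test. Of the other 219, 141 were lower and 1 higher (0.457% higher, against 29% of all promoters), or 60 and 4 with median scaling. The higher call, Vmn2r53 (0.80 ± 0.35), was not made in 7 of the alternatives, such as without H3K27me2 replicate 1 (0.40, adjusted p = 0.415).

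Around gene starts the marks had opposite mean profiles where CG was frequent. Promoters were divided by the number of CG in the 300 bases into groups of 0 to 6 (5676 promoters), 7 to 21 (5429) and 22 to 65 (5352). In the group with most CG, mean H3K27me3 was highest 0.5 kb past the start, at 2.23 ± 0.0495 (SD, n = 2), and 1.34 ± 0.00438 at 20 kb upstream. Mean H3K27me2 was lowest at the start itself, at 0.783 ± 0.108, against 1.43 ± 0.0946 at 20 kb upstream. The middle group had the highest H3K27me3, 2.52 ± 0.0308 at 0.5 kb, and an H3K27me2 minimum of 0.942 ± 0.106 at the start. The group with fewest CG had a lower H3K27me3 summit of 1.74 ± 0.0217. Its H3K27me2 was not depleted there but had its maximum of 1.15 ± 0.0138 at the same 0.5 kb. Medians had another order than these means. From the group with fewest CG to that with most, the median H3K27me3 level of the 2 kb promoters was 0.694, 0.482 and 0.269. The typical promoter with most CG thus held the least H3K27me3. The windows are 1 kb long, so features narrower than that are not resolved.

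**Figure D3:**
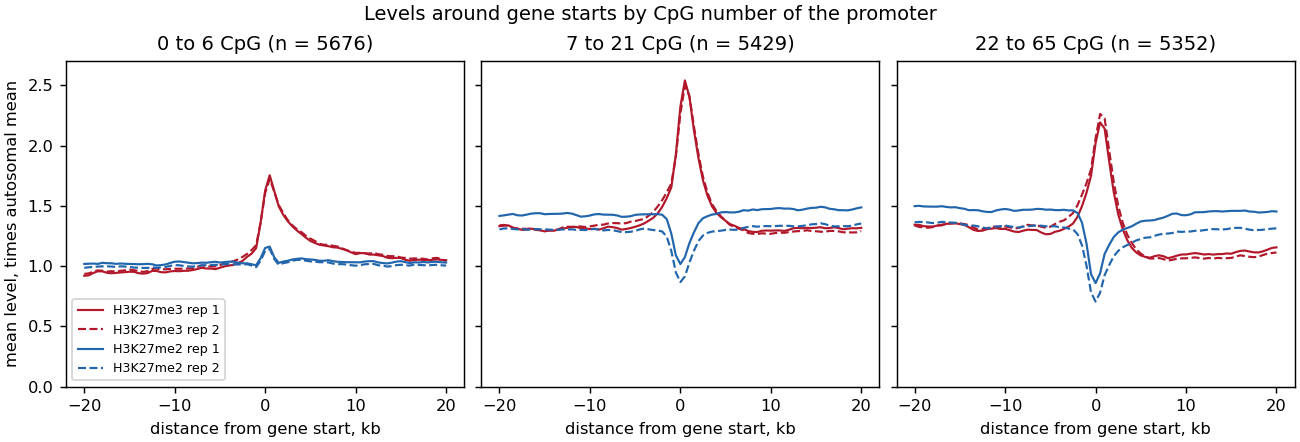
Mean relative level in 1 kb windows from 20 kb upstream to 20 kb downstream of gene starts (x axis, kb) for 3 groups of promoters by CG number, with 1 line per library. In the 2 groups with more CG, H3K27me3 has a summit and H3K27me2 a dip at the start. In the group with fewest CG both have a summit, that of H3K27me2 being small.

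Promoters rich in CG fell on both sides. In the group with 22 to 65 CG, 1289 of 4976 promoters tested (25.9%) were higher and 2946 (59.2%) lower, beside 29% and 50.8% of all promoters. The other groups had 27.9% and 33.1% higher. Within the CG-rich group the share went with the H3K36me3 level of the gene body. Genes of all CG groups were ranked together by body H3K36me3 and cut into 5 groups of equal size. From lowest to highest H3K36me3 these held 301, 763, 1121, 1318 and 1378 tested CG-rich promoters. From the lowest to the highest H3K36me3 group, 77.1%, 58.1%, 34.97%, 12.3% and 2.61% of CG-rich promoters had relatively more H3K27me3. Median promoter H3K27me3 went from 4.55 to 0.134 along the same groups, and median H3K27me2 from 0.650 up to 0.909 in the middle group and back to 0.732.

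Over gene bodies the ratio also differed between the H3K36me3 groups, but it was highest in the next to lowest group and not in the lowest. In the group of bodies with least H3K36me3 (at most 0.660 times the mean), 26.2% were higher and 41.7% lower, with a median ratio of -0.21. In the next group (0.660 to 1.49) 54.2% were higher and the median was 0.49. From there the median went to -0.46, -1.83 and -2.20, and in the group with most H3K36me3 (5.14 and above) 2.30% were higher and 93.7% lower, beside 26% and 60.1% of all bodies. Mean H3K27me3 in that top group was 0.537 and 0.477 in the 2 libraries, against 2.60 and 2.53 in the second group. Mean H3K27me2 was 1.76 and 1.47 in the top group and 1.30 and 1.29 in the second. The H3K27me2 values of the top group thus lay above those of the second group, and its H3K27me3 values far below. Median H3K27me1 was 2.60 in the top group and 1.01 in the second.

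**Figure D4:**
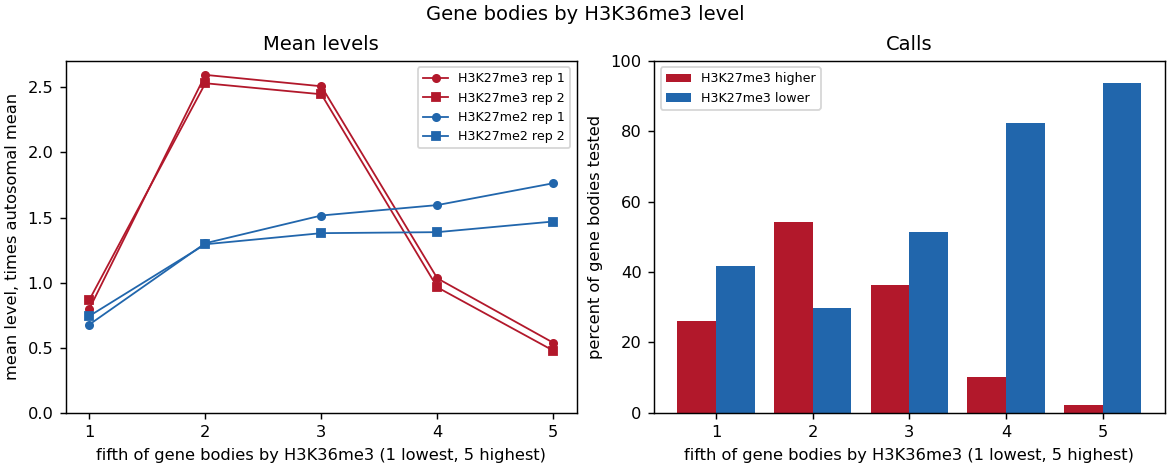
Left, mean relative level of each H3K27me3 and H3K27me2 library in 5 equal groups of gene bodies ordered by H3K36me3 (1 lowest, 5 highest). Right, percent of tested bodies in each group with relatively more or less H3K27me3, starting at 0: the share with more is 54.2% in group 2 and 2.30% in group 5.

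The 10 bodies with the largest ratios were 1.25 to 7.57 kb long. Nkx1-1 again led, with H3K27me3 at 20.6 and 17.8 and H3K27me2 at 0.257 and 0.0904 (6.21 ± 0.27; limma, adjusted p = 6.33e-07). Irx5 (6.004), Barx1 (5.84), Uncx (5.75), Gsx1 (5.75), Bsx (5.72) and Lhx5 (5.60) also encode homeobox factors. Egr3 (5.99) is a zinc finger factor, Foxd2 (5.52) a forkhead factor and Cbln1 (5.89) a synapse organiser. The smallest ratios among bodies with at least 2 times the mean of H3K27me2 were as follows. Mdp1, a phosphatase, had H3K27me3 at 0.173 and 0.0593 and H3K27me2 at 3.35 and 2.31 (-3.79 ± 0.27; limma, adjusted p = 2.88e-06). Tmem86b (-3.68), Commd4 (-3.55), 1700037C18Rik inside Cluap1 (-3.49) and Sac3d1 (-3.34) followed. Ndufs8 (-3.32) encodes a subunit of respiratory complex I and Elof1 (-3.26) a transcription elongation factor. Zfp646 (-3.29), Lime1 (-3.27) and Fastk (-3.23) completed the 10. The Lime1 body overlaps Zbtb46 and held 6 and 1 H3K27me3 reads. With the DMSO libraries all 10 remained lower with smaller ratios, from -2.35 (Mdp1) to -1.53 (Commd4).

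Promoter and body of a gene usually carried the same call. Of 13397 genes with both tested, 2794 were higher at both and 6213 lower at both. A higher promoter with a lower body was found at 463 genes and the opposite at 199. The promoter and body of a gene adjoin, so these are not independent.

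Among intergenic bins the 3 largest ratios were on chromosome 5: 139550001 to 139560000, 1.82 kb from Uncx (4.47 ± 0.14), 33460001 to 33470000, 25.9 kb from Nkx1-1 (4.42 ± 0.13), and 106460001 to 106470000, 1.83 kb from Barhl2 (4.25 ± 0.15). The Uncx bin had H3K27me3 at 11.3 and 12.8 and H3K27me2 at 0.503 and 0.398. Among bins with at least 2 times the mean of H3K27me2, the smallest ratio was on chromosome 1, at 134370001 to 134380000 near Mgat4f, with H3K27me3 at 0.239 and 0.173 and H3K27me2 at 2.06 and 1.96 (-2.79 ± 0.20; limma, adjusted p = 6.66e-12). The next were on chromosome 12 (86770001 to 86780000, near Lrrc74a, -2.73 ± 0.20) and chromosome 16 (9200001 to 9210000, -2.65 ± 0.19).

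Across the borders of broad H3K27me3 domains the marks parted. The authors' list held 42774 H3K27me3 peaks, the longest of 524 kb, and 3697 were at least 30 kb long, which gave 7394 edges. These were called from H3K27me3 itself, so its fall across an edge is set by the choice of edges and is given without a test. From 5 to 15 kb inside to 5 to 15 kb outside, H3K27me3 went to 60.5% and 59.7% of its inside level. H3K27me2 went to 108% and 102%. The log2 changes were -0.73 ± 0.01 and 0.07 ± 0.06 (SD, n = 2), a difference of -0.80. Many of these edges face another H3K27me3 peak. The 1036 edges with none within 20 kb outside, a choice made after seeing the data, gave a steeper border. As H3K27me3 peaks outside were left out, this steeper fall of H3K27me3 is also set by the choice.

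At those 1036 edges H3K27me3 stood at 4.09 ± 0.0138 inside and 0.458 ± 0.0140 outside (SD, n = 2), or 11.2% ± 0.305. The H3K27me3 libraries of DMSO-treated cells, which did not set the edges but measure the same mark, gave 12.5% ± 0.478. H3K27me2 was 1.496 ± 0.0284 inside and 1.49 ± 0.131 outside, or 99.8% ± 6.89, the mean of 105% in replicate 1 and 94.9% in replicate 2. It was not flat in between. It was highest 0.5 kb inside the edge, at 2.09 and 1.87 in the 2 libraries, where H3K27me3 was 2.23. H3K36me2 had its highest value at the same distance, 2.37 against 2.18 at 10 kb inside and 1.80 at 1 kb outside, so the summit was not limited to H3K27me2. H3K27me1 went from 0.965 ± 0.0215 inside to 1.95 ± 0.215 outside, H3K36me3 from 1.46 ± 0.0570 to 3.74 ± 0.178, and H3K36me2 from 2.21 ± 0.0975 to 1.499 ± 0.113.

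**Figure D5:**
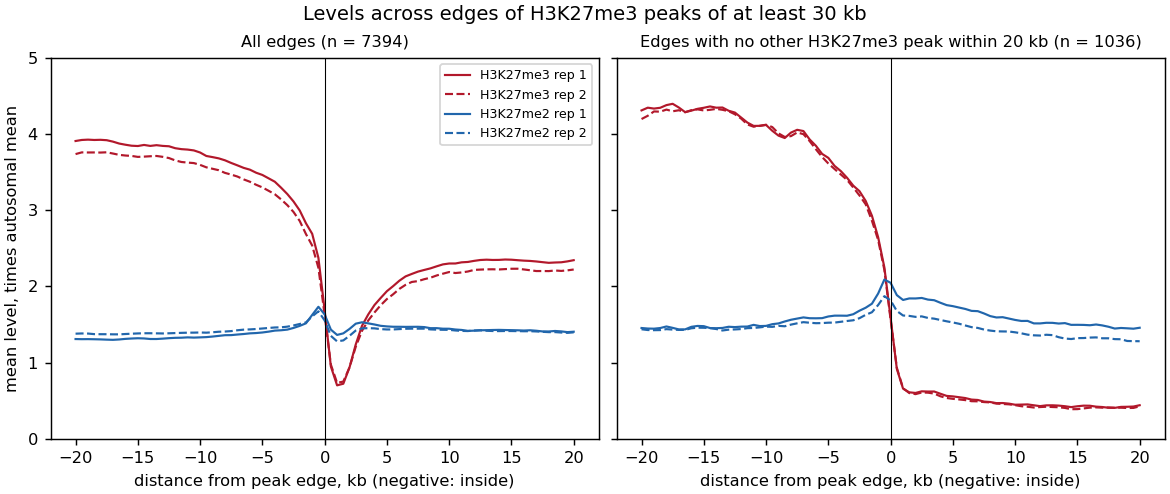
Mean relative level in 1 kb windows across edges of H3K27me3 peaks of at least 30 kb (x axis, kb; inside is negative), 1 line per library, for all 7394 edges and for the 1036 with no other H3K27me3 peak within 20 kb. On the right H3K27me3 falls to 11.2% of its inside level. H3K27me2 peaks 0.5 kb inside the edge, and outside it is at 105% and 94.9% of its inside level in the 2 libraries.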

How the data were processed

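Chromatin was immunoprecipitated from E14 cells and sequenced. The authors' deposited tracks hold log2 values in 1 kb windows every 500 bp, which were found from the values to be log2(1 + RPM). In every untreated track, 100% of values gave whole reads (tolerance 0.02). In the DMSO tracks the factor per read was taken to be a spike-in factor and cancels in relative levels. The submitters' processing notes name Trim Galore 0.4.2, Bowtie2 2.2.6.2, SICER and the builds mm10 and dm3, with no roles or settings. The deposited peak lists carry a score, of which only positions were used here, and hold peaks found in both untreated replicates, per the labels. No input library was used here, so no background was subtracted, and unmappable or multi-copy sequence was not masked (424 of 5451088 windows exceeded 3 times the mean in all 5 marks).

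Libraries were grouped by their labels. Values were returned to the linear scale, averaged over windows in a region and divided by the library's autosomal mean, which removes depth but not the difference in shape between marks. Gene positions came from the RefSeq table (GRCm38), and strands, starts and sequences from its promoter table. Of 20665 autosomal genes, 16457 had an entry; 3672 gene bodies without a strand were trimmed by 1 kb at both ends. limma 3.58.1 (R 4.3.3; lmFit, eBayes with trend) was fitted to log2(level + 0.1) over the 4 untreated libraries of the 2 marks, for regions with a mean level of at least 0.1. Standard errors (SE) are limma's. Class means and shares were compared with an exact permutation test. Scripts used Python 3.11.15, numpy 2.4.6, pandas 2.3.3 and matplotlib 3.10.9.

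The regions and gene lists were chosen with earlier results of these data known. Genes named were the 10 largest and 10 smallest ratios among called promoters and bodies (3 for bins) whose libraries did not overlap, with the higher mark at least 2 times its mean and not all 5 marks above 3. To these were added the 2 largest and the smallest ratio of each list of at least 5 genes, and Hox, PRC2 and naive pluripotency genes. Sall4, Dppa4 and Stat3 were named under the last rule, and Bmi1, Zfp804a and other list extremes under the list rule.

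On simulated data with 100 regions changed 2-fold and 100 changed 4-fold, 38 and 95 promoters, 44 and 98 bodies, and 43 and 100 bins were called, with 3, 9 and 4 unchanged regions. In this simulation a 2-fold difference was often missed. Few regions were changed there, while most regions tested were called in the data, so the rate missed in the data may differ. Replicates of a mark differed beyond sampling (chi-square per degree of freedom 2.79 for H3K27me3 and 3.03 for H3K27me2 over 10 kb bins). Alternatives were the pseudocount, the filter, the scaling, the test, region sizes, the DMSO libraries of H3K27me3, left-out libraries and a replicate block.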

Additional observations from a re-analysis of the deposited data

Results flagged for a closer look

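Chromosome X was not part of the autosomal comparison, and both marks gave signal there. H3K27me3 stood at 0.200 ± 0.0191 and H3K27me2 at 0.320 ± 0.00935 times the autosomal mean (SD, n = 2), and the libraries of the 2 marks did not overlap. The log2 ratio was -0.68 (exact two-sided permutation p = 0.3333, the lowest value this design can reach). The other marks on chromosome X were at 0.3999 and 0.399 (H3K27me1), 0.221 and 0.239 (H3K36me2) and 0.240 and 0.213 (H3K36me3). The number of X chromosomes in these cells is not given in the labels, and its part in these levels was not tested.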

How the results depend on the processing

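Library values and counts below are given for each alternative that moved them. With the H3K27me3 libraries of DMSO-treated cells, the log2 difference of class means was 1.33 at promoters and -0.12 in intergenic bins, and the excess of H3K27me3 over H3K27me2 signal was 6.21 percentage points in the top 1% of bins and 20.6 in the top 10%. In 50 kb bins the excess was 3.52 and 15.9 points, against 4.75 and 18.9 in 10 kb bins. The edge difference was -0.63 for peaks of at least 10 kb and -3.15 for edges with no other peak within 20 kb. The size of the latter follows from leaving out edges that face another H3K27me3 peak. Scaling by the median bin gave 4674 lower promoters, 33771 higher bins and 24075 lower bins. Bins of 50 kb gave 1508 and 7181, and bins at least 10 kb from every gene, an alternative added after seeing the data, gave 10045 higher. These alternatives test fewer bins by construction. With 1 library left out, counts ranged from 4032 to 4275 higher and 4792 to 7819 lower promoters, 4249 to 4327 and 9864 to 10515 bodies, and 12772 to 17055 and 36395 to 57059 bins. Shares ranged from 4.48 to 5.02 and 17.4 to 20.4 points. Edge differences ranged from -0.84 to -0.76, and class differences from 0.85 to 1.01 (promoters), -0.07 to -0.03 (bodies) and -0.11 to -0.04 (bins). limma-voom on recovered reads called 4569 higher and 7343 lower promoters, 4682 and 10581 bodies, and 16595 and 52223 bins. With replicate number as a block, which ended the call of Krt42 and no other call of the regions with extreme ratios, the counts were 4473 and 7956 for promoters, 4674 and 10737 for bodies, and 17002 and 54968 for bins. The deviations of same-numbered libraries correlated at 0.0788, 0.217 and 0.157, and with 2 pairs the number was not taken as a pairing. For the regions named by extreme ratio over all promoters, bodies or bins, and the extreme promoters of each gene list (no list bodies), 1176 of the values kept direction and side of the threshold, 25 lost and 5 gained a call, and 13 turned sign, at 4 promoters. Rps13 turned to 0.051 (median scaling) and 0.18 (DMSO), and ranged from -0.83 to 0.19 with 1 library left out (turning without H3K27me3 replicate 1). Vmn1r7 turned to -0.035 (DMSO) and -0.30 (5 kb promoter), and ranged from -0.18 to 0.98 with 1 library left out (turning without H3K27me3 replicate 2 or H3K27me2 replicate 1). Krt42 turned to -0.045 (DMSO). Stag3 turned to 0.73 (median scaling), 0.057 (voom) and 0.65 (DMSO), and ranged from -0.33 to 0.33 with 1 library left out (turning without H3K27me3 replicate 2 or H3K27me2 replicate 1). The cause was not tested. H3K27me3 was sequenced less deeply, and ratios of regions with few reads are the least precise.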
